A study of Homo sapiens with 16 samples.

Results

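The comparison set K562 cells treated with 25 nM phorbol 12-myristate 13-acetate (PMA) for 1.5 h against untreated cells at 0 h. Its members are the 4 libraries that the labels place at these time points, 2 at 0 h and 2 at 1.5 h, of 16 in the series. K562 is an established human cell line from a chronic myeloid leukaemia that carries the BCR-ABL1 fusion kinase, and the labels describe these cells as wild type, grown in RPMI medium with fetal bovine serum and antibiotics. All 16 libraries were made from DNase-treated total RNA of this line after removal of ribosomal RNA, and by the labels the 8 time points differ in the duration of PMA alone. The labels name neither a vehicle control nor separate cultures for the replicates, so p-values measure the spread between these libraries, which may be technical. The wild-type cells of this line are the whole model, and the bulk RNA cannot tell fewer expressing cells from less RNA per cell.

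PMA stands in for diacylglycerol, the lipid messenger that binds the C1 domains of protein kinase C and of a few other proteins such as the RasGRP exchange factors. From there the signal runs through RAF, MEK and the kinase ERK to transcription factors that are already present, including serum response factor with its ternary complex partners, and CREB. The immediate-early genes that they switch on need no new protein, and many of them encode transcription factors, phosphatases and RNA-binding proteins that shape or end the response. In K562 cells, long exposure to phorbol ester is known to lead to megakaryocyte-like features and arrest of growth.

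The 4 libraries held 29241520 to 34379674 reads each, and the 16 held 27285773 to 54056289. One of the 4, 0 h replicate 2, stood apart. The difference between the 0 h replicates followed the GC content of the transcripts (Pearson r across genes -0.73, a description since genes are not replicates), whereas that between the 1.5 h replicates did so less (0.23). The log2 fold change from 0 h to 1.5 h had r = -0.43 with GC content, and with 0 h replicate 1 alone as the control it was -0.12 and -0.20 for the 1.5 h replicates. That library also had the shortest fragments by the gap between transcript length and effective length, 199 nt. The gap was 217 nt in 0 h replicate 1 and 210 and 239 nt in 1.5 h replicates 1 and 2. The largest count of the phospholipase gene PLCG2 was also in 0 h replicate 2, with 15200 and 28900 CPM at 0 h and 13500 and 12600 CPM at 1.5 h. PLCG2 was chosen after its values were seen, and its log2 fold change was -0.76 with that library and -0.23 without it. Results are therefore also given without 0 h replicate 2, a fit in which 0 h replicate 1 is the only control and is assumed to vary like the other libraries.

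The cell type was checked against erythroid markers, which K562 is known to express. The fetal hemoglobin gene HBG2 had 3150 TPM at 0 h and 2460 TPM at 1.5 h, and none of the 25 markers listed was under 1 CPM in all 4 libraries. CPM are read counts relative to the library size scaled with edgeR's TMM factors, and TPM are the deposited values per transcript length, summed per gene. Markers of other cell types were at lower summed levels. The monocyte and macrophage list summed to 182 and 207 CPM at 0 h and 177 and 188 CPM at 1.5 h, with 7 of 15 tested markers under 1 CPM in all 4 libraries and ELANE, FCGR3A and S100A8 too low to test. The lymphocyte, stromal and epithelial list summed to 302 and 270 CPM at 0 h and 308 and 334 CPM at 1.5 h, with KRT5, KRT14, MS4A1 and 4 others too low to test.

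After 1.5 h, 3003 of 17559 genes tested (17.1%) were called changed at an adjusted p under 0.05, and 5715 had an unadjusted p under 0.05. The adjusted p, here and below, is from edgeR's quasi-likelihood test with Benjamini-Hochberg adjustment over all genes tested. Calls in the 2 directions were of similar number, with 1589 genes (9.05%) higher and 1414 (8.05%) lower, but not of similar size. At least 2-fold, 605 genes (3.45%) rose and 184 (1.05%) fell, and where the mean reached 5 CPM these numbers were 177 and 66. At least 4-fold, 54 such genes rose and 1, the pseudogene ABCB10P4, fell, and 27 rose at least 8-fold. Without 0 h replicate 2 the calls were 715 higher (4.07%) and 306 lower (1.74%), and with the GC trend of each library removed they were 1693 (9.64%) and 1418 (8.08%). Both 1.5 h libraries lay above both 0 h libraries in 27.6% of all genes and below them in 31.6%, so groups that do not overlap are common here. With libraries scaled to their total counts instead of TMM, 1223 genes were called higher and 2605 lower, so the share of higher calls was 31.9% in place of 52.9%. The median log2 fold change over all genes was -0.03 with TMM and -0.12 with total counts. List counts given below without 0 h replicate 2 are to be read beside the shares of all genes in that fit, 4.07% higher and 1.74% lower. They are not to be read beside 9.05 and 8.05%.

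**Figure D1:**
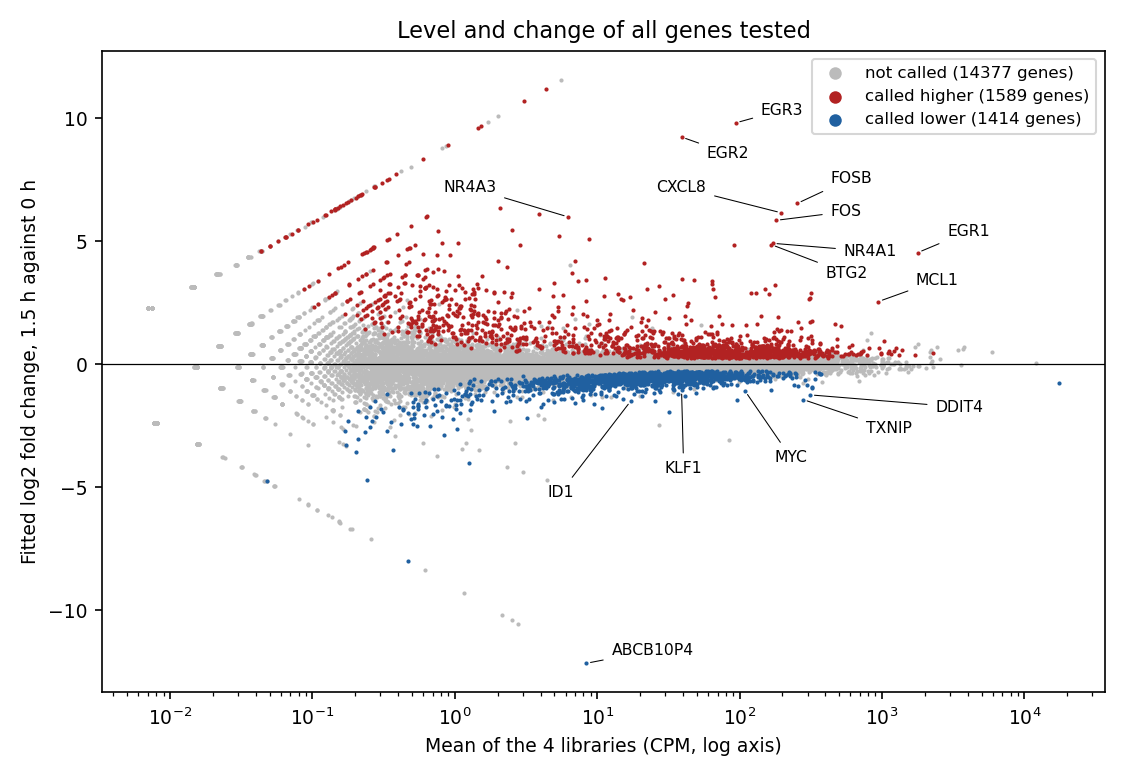
Log2 fold change from 0 h to 1.5 h (vertical axis) against the mean level in the 4 libraries (CPM, log axis), one point per gene tested, with genes called higher and lower in colour; 179 genes with no read in the 4 libraries are not drawn. EGR3 and EGR2 lie among the highest points, and apart from ABCB10P4, with no read at 1.5 h, the labelled genes that fell lie closer to 0 than those that rose.

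The list of the immediate-early class, mostly transcription factors, had the largest median change of the 21 lists. It also holds genes of other kinds, such as MCL1 and ARC. Of 31 listed, 29 were tested, 27 were called higher and 1 lower, against 9.05% and 8.05% of all genes, and the median log2 fold change was 2.56 against -0.03. Without 0 h replicate 2 the counts were 25 and 1. The summed level of the tested members, MCL1 included, was 1280 and 1470 CPM at 0 h and 9820 and 10000 CPM at 1.5 h. CCN2 and IER3 had too few reads to test, and SRF itself, the factor that binds CArG boxes, was not called (66.2 and 86.4 CPM at 0 h and 88.3 and 91.8 CPM at 1.5 h).

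All 4 EGR zinc-finger factors, which bind GC-rich sites, rose, and EGR2 and EGR3 were among the largest changes. EGR3 had 0.184 and 0.225 CPM at 0 h and 187 and 189 CPM at 1.5 h. EGR2 had 0.0921 and 0.161 CPM at 0 h and 75.5 and 81.1 CPM at 1.5 h. Both were near silent in untreated cells and the groups were far apart: the log2 fold changes were 9.82 ± 0.22 and 9.24 ± 0.19 (SE), with adjusted p = 5.01e-12 and 3.87e-12. EGR4 had no read in either 0 h library and 5.94 and 6.33 CPM at 1.5 h, which is at least 65-fold higher when 3 reads per library are taken as the floor. EGR1 started from a basal level, with 118 and 175 CPM at 0 h and 3220 and 3630 CPM at 1.5 h (log2 fold change 4.55 ± 0.21 SE, adjusted p = 1.11e-08). Per transcript length EGR1 was the most abundant of the EGR genes, with 72.7 TPM at 0 h and 1650 TPM at 1.5 h, against 0.0694 TPM at 0 h and 74.1 TPM at 1.5 h for EGR3 and 0.122 TPM at 0 h and 42.1 TPM at 1.5 h for EGR2. The corepressors that bind EGR proteins rose as well, NAB2 from 11.6 and 14.5 CPM to 82.9 and 65.8 CPM (log2 fold change 2.51 ± 0.15 SE, adjusted p = 1.52e-07) and NAB1 by a log2 fold change of 1.19 ± 0.17 SE.

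The promoters of EGR1 and EGR2 are shown because these genes were among the largest rises and because both windows hold a CArG box, the site of serum response factor. The windows run from 250 bases before to 50 after a RefSeq start (GRCh38.p14), 5′ to 3′ on the strand of the gene, with motif matches in capitals. EGR1 is at chr5:138465229-138465528, plus strand, and its capitals mark a match to the EGR motif GCGNGGGCG that begins 198 bases before the start and CArG boxes that begin 105 and 83 bases before it. The EGR2 window, one of 3 in the table for this gene, is at chr10:62816317-62816616, minus strand, with its CArG box beginning 71 bases before the start.
EGR1: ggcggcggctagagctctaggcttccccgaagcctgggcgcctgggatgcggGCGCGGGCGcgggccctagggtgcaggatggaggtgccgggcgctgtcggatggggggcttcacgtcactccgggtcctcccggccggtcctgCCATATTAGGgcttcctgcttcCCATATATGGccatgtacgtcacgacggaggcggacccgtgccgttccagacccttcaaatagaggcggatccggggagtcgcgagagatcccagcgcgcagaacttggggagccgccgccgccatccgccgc
EGR2: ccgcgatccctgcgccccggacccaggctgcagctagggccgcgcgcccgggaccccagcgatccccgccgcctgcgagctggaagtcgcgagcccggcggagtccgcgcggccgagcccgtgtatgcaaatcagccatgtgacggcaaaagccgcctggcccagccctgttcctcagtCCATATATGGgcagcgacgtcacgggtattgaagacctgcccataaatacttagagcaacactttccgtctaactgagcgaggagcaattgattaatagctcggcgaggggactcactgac
A CArG box was found in 1.29% of the 35116 promoter windows of the table. Of the 27 immediate-early genes called higher, 20 had a window and 2 of these held a CArG box, 2 a CRE (TGACGTCA), 1 an AP-1 site (TGANTCA), 7 an EGR motif, 3 an NF-kB site and none the ETS motif CCGGAAGT. Both strands were searched, motifs were allowed to overlap, and the shares over all windows were 1.85% for CRE, 7.71% for AP-1, 9.43% for EGR, 5.91% for NF-kB and 4.14% for ETS. A gene can have several windows, so the counts by gene are to be read beside the 12159 tested genes with a window, of which 1.69% held a CArG box in any window, 3.54% a CRE, 7.53% an AP-1 site, 18.1% an EGR motif, 8.74% an NF-kB site and 8.72% the ETS motif. Only 74.1% of these called genes and 69.2% of all genes tested had a window, so a comparison of the shares is void. A match describes the letters of these windows, not binding.

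The AP-1 factors, dimers of FOS and JUN family proteins, rose. FOS had 6.08 and 6.18 CPM at 0 h and 352 and 360 CPM at 1.5 h (log2 fold change 5.86 ± 0.13 SE, adjusted p = 5.01e-12). FOSB had 6.14 and 4.6 CPM at 0 h and 516 and 490 CPM at 1.5 h (log2 fold change 6.55 ± 0.19 SE, adjusted p = 4.64e-11), and its gene overlaps ERCC1 on the other strand. Their values in untreated cells lay under 7 CPM, and the 1.5 h replicates differed little from each other. FOSL1 rose from 22.1 and 34.2 CPM to 203 and 220 CPM, and FOSL2 by a log2 fold change of 1.88. JUN, a partner of FOS, rose from 73.9 and 77.1 CPM to 561 and 558 CPM (log2 fold change 2.89 ± 0.13 SE, adjusted p = 5.41e-09). JUNB rose from 28.9 and 35.9 CPM to 271 and 267 CPM, a log2 fold change of 3.05 ± 0.19 SE, and JUND, which was high before treatment, from 92 and 129 CPM to 245 and 229 CPM (adjusted p = 0.0054). The small MAF factor MAFF and the stress-response factor ATF3 had log2 fold changes of 1.97 and 1.91.

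The orphan nuclear receptors of the NR4A family, which act without a known ligand, rose to different extents. NR4A1 went from 10.6 and 11.3 CPM to 359 and 304 CPM (log2 fold change 4.92 ± 0.16 SE, adjusted p = 2.46e-10). NR4A3 went from 0.123 and 0.257 CPM to 13.5 and 11.1 CPM (log2 fold change 6.00 ± 0.33 SE, adjusted p = 5.64e-08), and NR4A2 had a log2 fold change of 1.41 ± 0.11 SE. For both genes the 2 treated libraries lay far above the untreated ones. Among the Krüppel-like factors, KLF10, a TGF-beta-inducible repressor, had 34.6 and 34 CPM at 0 h and 327 and 316 CPM at 1.5 h (log2 fold change 3.23 ± 0.10 SE, adjusted p = 1.04e-10) and KLF6 had 84.1 and 85.6 CPM at 0 h and 542 and 516 CPM at 1.5 h (log2 fold change 2.64 ± 0.10 SE, adjusted p = 8.42e-10). KLF2 and KLF4 rose by 1.37 and 0.98 on the log2 scale. ARC, best known as a synaptic immediate-early gene, went from 0.307 and 0.676 CPM to 21.5 and 12.3 CPM, and IER2 had a log2 fold change of 1.74. IER5 had the smallest called rise of the list (0.43 ± 0.13 SE, adjusted p = 0.0335). KLF2 and IER5 were not called without 0 h replicate 2, with 1.67 and 0.54.

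MYC was the only listed factor of this class that fell. It had 136 and 161 CPM at 0 h and 63.9 and 76.4 CPM at 1.5 h (log2 fold change -1.08 ± 0.19 SE, adjusted p = 0.00213), so both treated libraries lay below both untreated ones. MYC is counted in this class from its serum response in fibroblasts, and it is also a target of STAT5 downstream of BCR-ABL1.

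**Figure D2:**
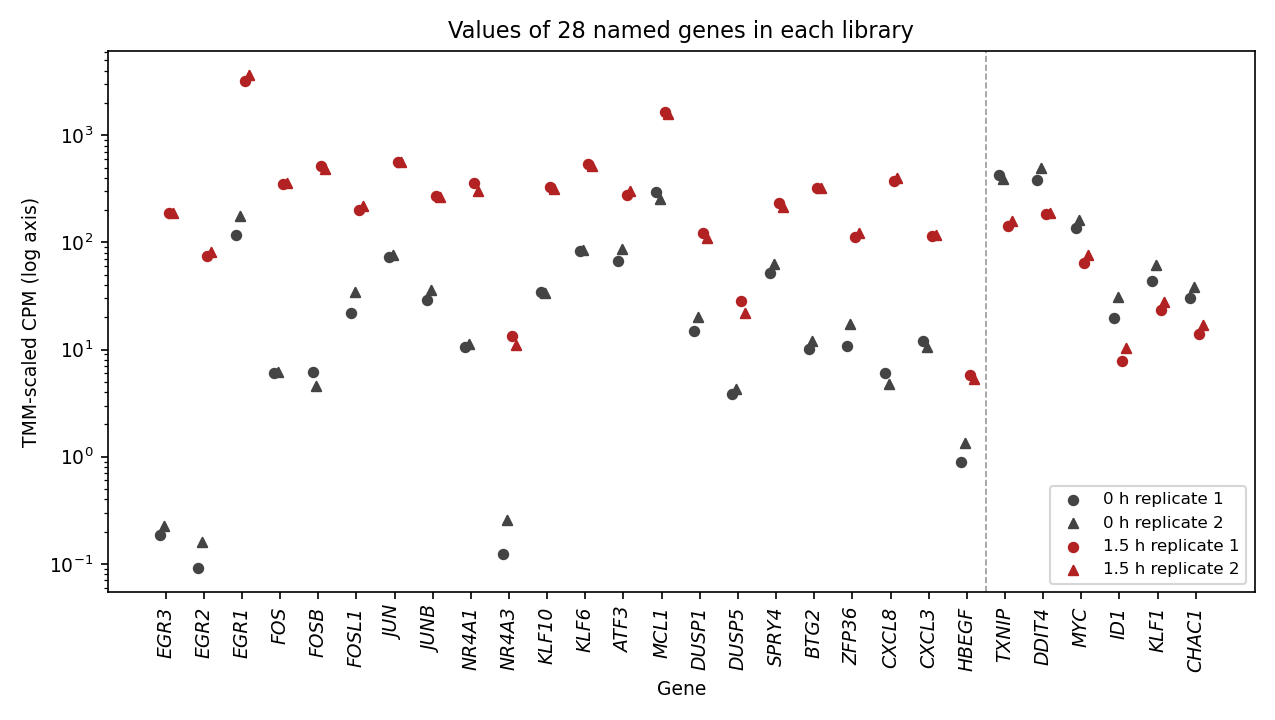
Level of 28 genes in each of the 4 libraries (CPM, log axis), 0 h and 1.5 h in different colours, circles for replicate 1 and triangles for replicate 2. For the 22 genes left of the dashed line both 1.5 h values lie above both 0 h values, as for FOS with 352 and 360 CPM against 6.08 and 6.18 CPM, and for the 6 genes on the right they lie below.

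A list built around feedback inhibitors of the ERK pathway followed, where 9.05% of all genes were called higher and 8.05% lower. Its 20 genes are mainly phosphatases of ERK and other MAP kinases, Sprouty and SPRED genes. It also holds PHLDA1, ERRFI1 and SPSB1, which belong to none of these families. All 20 were tested, 13 were called higher and none lower, with a median log2 fold change of 1.07. Without 0 h replicate 2, 10 were called higher and none lower. DUSP1, a nuclear phosphatase that removes phosphate from MAP kinases, had 14.8 and 20 CPM at 0 h and 122 and 111 CPM at 1.5 h (log2 fold change 2.74 ± 0.16 SE, adjusted p = 8.71e-08). DUSP5, which is specific for nuclear ERK, had 3.84 and 4.28 CPM at 0 h and 28.6 and 22.1 CPM at 1.5 h (log2 fold change 2.64 ± 0.16 SE, adjusted p = 1.27e-07). In contrast DUSP6, the cytoplasmic ERK phosphatase, was near the floor throughout, with 0.153 and 0.547 CPM at 0 h and 0.308 and 0.357 CPM at 1.5 h, and was not called. DUSP8, DUSP10 and DUSP16, which act mainly on the stress kinases JNK and p38, rose by 1.43, 0.43 and 1.04 on the log2 scale. SPRY4, which blocks RAS and RAF activation, had 51.4 and 63.3 CPM at 0 h and 233 and 215 CPM at 1.5 h (log2 fold change 1.97 ± 0.11 SE, adjusted p = 1.07e-07), SPRY2 a log2 fold change of 1.09, and SPRY1 was not called (0.184 and 0.676 CPM at 0 h and 0.476 and 0.178 CPM at 1.5 h). SPRED3 and SPRED2 rose by 1.82 and 0.58, while SPRED1 was not called (0.27). DUSP2 was called from near the floor, with 0 and 0 CPM at 0 h and 0.056 and 0.119 CPM at 1.5 h. PHLDA1, a nuclear protein induced by ERK, rose from 8.47 and 7.89 CPM to 95.5 and 79.2 CPM (log2 fold change 3.42 ± 0.13 SE, adjusted p = 9.53e-10). ERRFI1, an inhibitor of EGF receptor kinases, and SPSB1 rose by 1.52 and 1.96. The calls of DUSP2, DUSP8 and SPSB1 were lost without 0 h replicate 2, where DUSP8 and SPSB1 had 1.32 and 2.16. DUSP2 had no read in either 0 h library.

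The promoter of DUSP1 is shown because it holds a CRE, the site of CREB and ATF factors, that begins 125 bases before the start (chr5:172771146-172771445, minus strand, GRCh38.p14). Of the 13 called genes, 11 (84.6%) had a window, and 2 of the 11 held a CRE, 4 an EGR motif, 2 an AP-1 site and 1 an NF-kB site. Among tested genes with a window, 3.54% held a CRE, 18.1% an EGR motif, 7.53% an AP-1 site and 8.74% an NF-kB site.
DUSP1: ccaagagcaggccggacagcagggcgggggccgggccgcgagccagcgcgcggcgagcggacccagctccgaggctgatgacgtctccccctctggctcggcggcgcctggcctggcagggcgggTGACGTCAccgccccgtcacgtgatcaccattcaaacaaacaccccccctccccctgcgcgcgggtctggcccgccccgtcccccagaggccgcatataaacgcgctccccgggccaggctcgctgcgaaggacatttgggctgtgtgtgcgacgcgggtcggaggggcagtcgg

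The direct receptors of PMA are protein kinase C isoforms and other proteins with a diacylglycerol-binding domain. Of 25 protein kinase C, protein kinase D and other diacylglycerol-binding or diacylglycerol-metabolising genes, 1 was called higher and 1 lower, beside 9.05 and 8.05% of all genes, and the median log2 fold change was -0.04. Without 0 h replicate 2 these counts were 1 and 0. PRKCB, the member with the most reads, had 564 and 577 CPM at 0 h and 596 and 615 CPM at 1.5 h (log2 fold change 0.09 ± 0.09 SE, adjusted p = 0.569). The called genes were PRKCI, an atypical isoform that does not bind phorbol ester (0.42 ± 0.14 SE), and DGKA, a kinase that removes diacylglycerol (-0.40 ± 0.13 SE). Neither was called without 0 h replicate 2 (0.20 and -0.42), where PRKCD, a calcium-independent isoform, was the called member (0.77). PRKCD had 8.41 and 18.1 CPM at 0 h and 13.8 and 14.9 CPM at 1.5 h.

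Of 17 tested factors that shorten the life of mRNA, 10 were called higher (9.05% of all genes were) and none lower, with a median of 0.47, and 8 were called higher without 0 h replicate 2. BTG2, an antiproliferative protein that recruits the CCR4-NOT deadenylase, had 10.2 and 11.9 CPM at 0 h and 323 and 323 CPM at 1.5 h (log2 fold change 4.87 ± 0.11 SE, adjusted p = 5.01e-12). ZFP36, which binds AU-rich elements in cytokine and immediate-early mRNAs, had 10.7 and 17.4 CPM at 0 h and 112 and 122 CPM at 1.5 h (log2 fold change 3.06 ± 0.23 SE, adjusted p = 1.24e-06). Its relatives ZFP36L1 and ZFP36L2 rose by 0.74 and 0.47, and the endonuclease ZC3H12A by 1.20. BTG1 and BTG3 rose by 0.88 and 0.85, and BTG3 was not called without 0 h replicate 2 (0.70). The deadenylase subunits CNOT6, CNOT7 and CNOT8 were not called and had log2 values of 0.18, 0.32 and -0.14.

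Of 24 tested NF-kB subunits, inhibitors and targets, 12 were called higher and 2 lower, with a median of 0.44, and 6 and none without 0 h replicate 2. With that library included, 9.05% of all genes were called higher and 8.05% lower. RELB, a subunit of the noncanonical pathway, had 1.17 and 1.35 CPM at 0 h and 9.69 and 7.43 CPM at 1.5 h (log2 fold change 2.76 ± 0.22 SE, adjusted p = 2.62e-06). TRAF1, a target that dampens TNF receptor signalling, rose by 2.07, and NFKBIA, the inhibitor IkB-alpha, went from 12.8 and 14.3 CPM to 27.6 and 29.2 CPM (log2 fold change 1.07 ± 0.12 SE, adjusted p = 6.51e-05). RELA, the main activating subunit, was not called (44.1 and 58.6 CPM at 0 h and 51.2 and 52.5 CPM at 1.5 h). TNFAIP3, the A20 deubiquitinase, rose by 0.45 ± 0.10 SE. Against the direction of the list, BCL3 had 2.73 and 4.22 CPM at 0 h and 1.51 and 2.08 CPM at 1.5 h (log2 fold change -0.95 ± 0.26 SE, adjusted p = 0.0237) and IRF1 fell by 0.46 on the log2 scale. TRAF1, BCL3 and IRF1 were not called without 0 h replicate 2, where BCL3 and IRF1 had -0.61 and -0.30.

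Of 34 secreted ligands, 29 were tested, and 8 were called higher (9.05% of all genes were) and none lower (8.05% of all). Their median log2 fold change was 0.56, or 0.27 without 0 h replicate 2 and 0.29 without 0 h replicate 1. Many of the list were silent: 13 of the 29 stayed under 1 CPM in all 4 libraries. The chemokine gene CXCL8 had 6.08 and 4.73 CPM at 0 h and 372 and 403 CPM at 1.5 h (log2 fold change 6.16 ± 0.17 SE, adjusted p = 2.80e-11). The neutrophil chemokine genes CXCL3 and CXCL2 rose alike. CXCL3 had 11.9 and 10.5 CPM at 0 h and 114 and 118 CPM at 1.5 h, and CXCL2 had 11.3 and 12.9 CPM at 0 h and 110 and 122 CPM at 1.5 h, with log2 fold changes of 3.37 ± 0.10 and 3.26 ± 0.11 SE. CXCL1 rose by 2.76 ± 0.35. These 3 are near copies in a cluster on chromosome 4, so reads may be shared among them. Ligands of the EGF receptor rose from low levels, HBEGF from 0.89 and 1.35 CPM to 5.74 and 5.29 CPM and AREG by 1.79 ± 0.11 on the log2 scale, while EREG was not called (12.2 and 11.4 CPM at 0 h and 12.2 and 12.6 CPM at 1.5 h). GDF15, a stress cytokine, had 92.6 and 124 CPM at 0 h and 280 and 284 CPM at 1.5 h (log2 fold change 1.38 ± 0.18 SE, adjusted p = 2.05e-04). PDGFA, a platelet growth factor, had 6.75 and 8.34 CPM at 0 h and 15.1 and 12.4 CPM at 1.5 h (log2 fold change 0.87 ± 0.14 SE, adjusted p = 0.001), and TGFB1 was not called (103 and 163 CPM at 0 h and 113 and 123 CPM at 1.5 h).

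The promoters of CXCL2, CXCL3 and CXCL8 are shown because these genes rose most among the ligands. CXCL3 (chr4:74038640-74038939, minus strand) and CXCL2 (chr4:74099146-74099445, minus strand) hold an NF-kB site that begins within 80 bases before the start and is found on both strands, at 79 and 78 bases in CXCL3 and at 78 and 77 bases in CXCL2. CXCL1 holds one at 79 and 78 bases. The CXCL8 window (chr4:73740319-73740618, plus strand) holds an AP-1 site that begins 137 bases before the start. All 8 called ligands had a window, and 3 held an NF-kB site, 1 a CArG box, 1 a CRE, 1 an AP-1 site and 1 an EGR motif. The 3 with an NF-kB site are the near copies CXCL1, CXCL2 and CXCL3. Only exact matches to GGGRNWYYCC were marked as NF-kB sites (R is A or G, W is A or T, Y is C or T, N is any base). The CXCL8 window held none, and sites that differ from these letters were not searched for, so it may still hold one. Over tested genes with a window the shares were 8.74% for NF-kB, 1.69% for CArG, 3.54% for CRE, 7.53% for AP-1 and 18.1% for EGR.
CXCL2: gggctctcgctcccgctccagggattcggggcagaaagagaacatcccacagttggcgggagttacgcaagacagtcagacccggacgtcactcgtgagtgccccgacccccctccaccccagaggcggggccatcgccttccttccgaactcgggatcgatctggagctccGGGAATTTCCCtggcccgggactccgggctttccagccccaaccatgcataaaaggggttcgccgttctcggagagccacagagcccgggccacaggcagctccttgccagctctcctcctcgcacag
CXCL3: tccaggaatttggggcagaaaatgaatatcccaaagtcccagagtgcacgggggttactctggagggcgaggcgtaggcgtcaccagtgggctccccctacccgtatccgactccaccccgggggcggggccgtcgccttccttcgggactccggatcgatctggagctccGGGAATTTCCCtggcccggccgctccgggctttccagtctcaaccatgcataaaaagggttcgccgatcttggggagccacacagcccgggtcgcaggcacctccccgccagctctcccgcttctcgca
CXCL8: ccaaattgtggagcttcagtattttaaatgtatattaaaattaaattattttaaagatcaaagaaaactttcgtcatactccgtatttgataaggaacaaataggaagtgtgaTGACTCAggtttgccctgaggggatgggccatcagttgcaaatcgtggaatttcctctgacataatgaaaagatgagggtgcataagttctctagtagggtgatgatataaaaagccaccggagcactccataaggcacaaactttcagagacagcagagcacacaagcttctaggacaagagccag

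Among 25 receptors, adhesion molecules and members of the plasminogen system, 8 were called higher and 1 lower, with a median of 0.32, and 7 and none without 0 h replicate 2. Over all genes, 9.05% were called higher and 8.05% lower with that library included. The protease PLAU and its receptor PLAUR rose by 1.34 and 1.21. CD69, a lectin of activated leukocytes, had 45.9 and 31.7 CPM at 0 h and 271 and 298 CPM at 1.5 h (log2 fold change 2.87 ± 0.18 SE, adjusted p = 2.12e-07). The tetraspanin gene CD82 was the member that fell (-0.47 ± 0.14 SE), a call lost without 0 h replicate 2 (-0.42). The integrin genes ITGA2B and ITGB3, which together encode the fibrinogen receptor of platelets, were not called (-0.32 and 0.39).

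Targets of SRF and its MRTF partners in the cytoskeleton had a median near that of all genes. Of 29 tested, 8 were called higher and 2 lower, with a median of 0.03, and 7 and 1 without 0 h replicate 2. Calls over all genes were 9.05% higher and 8.05% lower with that library included. With total-count scaling the list median was -0.06. TPM4, a tropomyosin, rose by 1.35 ± 0.12 SE, the focal adhesion gene ZYX by 0.91, and the actin genes ACTG1 and ACTB by 0.68 and 0.46. Actin has many pseudogene copies, so its counts are uncertain. VCL and FLNA, targets of the same factors, were not called (0.06 and 0.10), and ITGA5 and MYL9 fell by 0.73 and 0.67. MYL9 was not called without 0 h replicate 2 (-0.35).

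Genes of survival and arrest were mixed, beside 9.05% of all genes called higher and 8.05% called lower. Of 18 tested BCL2 family genes and apoptosis regulators, 3 rose and 4 fell, with a median of -0.15 (1 and none without 0 h replicate 2). MCL1, a short-lived antiapoptotic protein that also stands in the immediate-early list, had 294 and 255 CPM at 0 h and 1650 and 1580 CPM at 1.5 h (log2 fold change 2.56 ± 0.14 SE, adjusted p = 5.76e-08). Its relative BCL2L1 fell by 0.44, and BAD, BAK1 and BMF, which promote apoptosis, fell by 0.80, 0.43 and 0.66. None of these 4 falls was called without 0 h replicate 2, where their values were -0.30, -0.61, -0.27 and -0.32. Of 15 tested growth arrest and p53 targets, 5 rose and 1 fell, with a median of 0.13, and the counts were 5 and 1 without 0 h replicate 2. CDKN1A, the cyclin-dependent kinase inhibitor p21, had 12.5 and 14.8 CPM at 0 h and 77.1 and 65.4 CPM at 1.5 h (log2 fold change 2.39 ± 0.15 SE, adjusted p = 2.54e-07). GADD45B and GADD45A, stress sensors upstream of p38, rose by 2.75 and 0.93, and the inhibitor genes CDKN1B and CDKN1C were not called (-0.24 and -0.56). The p53 targets MDM2, SESN1 and BBC3 were also not called, with log2 values of 0.29, -0.22 and -0.20.

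Of 24 ATF4 and unfolded-protein stress targets, 6 rose and 5 fell, with a median of 0.02 (-0.07 with total counts), and 4 and 3 without 0 h replicate 2. With that library included, 9.05% of all genes were called higher and 8.05% lower. DDIT3, the factor CHOP, rose from 52.3 and 58.4 CPM to 171 and 164 CPM (log2 fold change 1.60 ± 0.12 SE, adjusted p = 1.24e-06), and PPP1R15A, a phosphatase subunit that restores translation, by 1.08. Other ATF4 targets went the opposite way: CHAC1, a glutathione-degrading enzyme, had 30.6 and 38.3 CPM at 0 h and 13.9 and 16.9 CPM at 1.5 h (log2 fold change -1.16 ± 0.22 SE, adjusted p = 0.00389), and DDIT4, an mTORC1 inhibitor also known as REDD1, had 387 and 494 CPM at 0 h and 185 and 189 CPM at 1.5 h (log2 fold change -1.24 ± 0.12 SE, adjusted p = 2.30e-05). ATF4 and its target ASNS were not called (-0.13 and 0.22). Of 12 tested heat shock and handling stress genes, 3 rose and 3 fell, with a median of 0.22 (2 and 3 without 0 h replicate 2). DNAJB1, a cochaperone, rose by 1.62 ± 0.12 SE. TXNIP, an arrestin that lowers glucose uptake, had 423 and 392 CPM at 0 h and 143 and 160 CPM at 1.5 h (log2 fold change -1.43 ± 0.11 SE, adjusted p = 2.16e-06), and its relatives ARRDC3 and ARRDC4 fell by 0.90 and 0.59. ARRDC3 had 108 and 64.6 CPM at 0 h and 43.3 and 48.9 CPM at 1.5 h, so the untreated libraries lay far apart. With 0 h replicate 1 as the only control its log2 fold change was -1.23, and with 0 h replicate 2 as the only one -0.49.

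Several factors of the erythroid and megakaryocyte programme fell, beside 8.05% of all genes called lower and 9.05% called higher. Of 33 haematopoietic transcription factors, 9 were called lower and 2 higher, with a median of -0.10. Without 0 h replicate 2 the list median was -0.08, and that of all genes was -0.01. KLF1, the erythroid Krüppel-like factor, had 43.8 and 61.4 CPM at 0 h and 23.6 and 27.6 CPM at 1.5 h (log2 fold change -1.04 ± 0.15 SE, adjusted p = 5.92e-04). NFE2, which drives globin and platelet genes, had 78.9 and 99.1 CPM at 0 h and 41.7 and 51.4 CPM at 1.5 h (log2 fold change -0.93 ± 0.13 SE, adjusted p = 5.03e-04). GATA1, the master factor of both lineages, had 107 and 155 CPM at 0 h and 85.4 and 89.7 CPM at 1.5 h (log2 fold change -0.58 ± 0.15 SE, adjusted p = 0.0214). KLF1, NFE2 and HHEX were the factors still called lower without 0 h replicate 2, with -0.77, -0.76 and -0.70. The GATA1 call rested on that library, and its log2 fold change was -0.29 without it. LYL1, HHEX, ZFPM1 and GFI1B fell by 0.80, 0.83, 0.72 and 0.57, and TAL1 and MYB by 0.33 and 0.30, and all of these but HHEX lost their call without that library. Against these, ETS2 rose from 19.3 and 22 CPM to 59.9 and 67.7 CPM (log2 fold change 1.63 ± 0.12 SE, adjusted p = 9.49e-07) and CEBPA by 1.39, of which ETS2 was called without it. GATA2 and RUNX1, factors of earlier progenitors and megakaryocytes, were not called (0.11 and -0.07).

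Of 25 erythroid markers, 2 were called lower (8.05% of all genes were) and none higher (9.05% of all), with a median of -0.23 (-0.07 without 0 h replicate 2, with 1 lower call), and the 2 were KLF1 and EPOR, the erythropoietin receptor (-0.76 ± 0.20 SE, not called without that library). HBG2 was not called (736 and 905 CPM at 0 h and 675 and 603 CPM at 1.5 h). The globin genes occur in near copies, so reads may be split among them. Of 20 megakaryocyte and platelet markers, 13 had enough reads to test, and PF4, GP9, GP1BA and SELP, which encode platelet proteins, were among those that did not. None of the 13 was called higher and 1, F2RL3, was called lower (-0.64 ± 0.13 SE), with none called without 0 h replicate 2. ITGA2B, the platelet integrin chain already present in K562, had 52.6 and 62.9 CPM at 0 h and 45.6 and 46.8 CPM at 1.5 h (log2 fold change -0.32 ± 0.11 SE, adjusted p = 0.0534). The list summed to 104 and 137 CPM at 0 h and 90.4 and 99.2 CPM at 1.5 h. In the monocyte list, 1 gene was called higher and 1 lower of 15 tested (CD14 1.68, CD33 -0.43, median -0.04), and in the lymphocyte, stromal and epithelial list 1 of 13 was lower (COL1A1 -0.46, median -0.23). None of the calls in these last lists was made without 0 h replicate 2.

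Inhibitors of DNA binding and related repressors divided, where 9.05% of all genes were called higher and 8.05% lower. Of 18 tested, 3 rose and 5 fell, with a median of -0.29, and 2 and 4 without 0 h replicate 2. BHLHE40, a clock-related repressor, had 70.7 and 95.3 CPM at 0 h and 577 and 498 CPM at 1.5 h (log2 fold change 2.69 ± 0.15 SE, adjusted p = 5.64e-08). ID1, which sequesters basic helix-loop-helix factors and is a target of BMP signalling, had 19.9 and 30.8 CPM at 0 h and 7.84 and 10.3 CPM at 1.5 h (log2 fold change -1.48 ± 0.20 SE, adjusted p = 3.20e-04), and ID3 had 25.5 and 33.2 CPM at 0 h and 12 and 12.2 CPM at 1.5 h (log2 fold change -1.28 ± 0.16 SE, adjusted p = 1.83e-04). ID2 was not called (6.32 and 5.63 CPM at 0 h and 6.81 and 6.78 CPM at 1.5 h). SMAD7 and HES6 fell by 0.72 and 0.91, and HES6 was not called without 0 h replicate 2 (-0.57).

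Of 16 tested STAT5 targets and suppressors of cytokine signalling, 6 fell and 2 rose, with a median of -0.23, and 3 and 2 without 0 h replicate 2. Over all genes, 8.05% were called lower and 9.05% higher with that library included. CISH, a direct STAT5 target that inhibits cytokine receptors, had 42 and 51.4 CPM at 0 h and 21.8 and 23.9 CPM at 1.5 h (log2 fold change -1.03 ± 0.16 SE, adjusted p = 7.16e-04). SOCS2 and CCND3 fell by 0.58 and 0.48, and CCND3 was not called without 0 h replicate 2 (-0.24). PIM3, a survival kinase, and BCL6, a repressor, were the members that rose (0.94 and 0.70), and PIM1 was not called (-0.25).

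Of 24 mitotic genes, 11 were called higher and none lower, with a median of 0.40. Without 0 h replicate 2, 7 were called higher and the median was 0.29, while the calls over all genes went from 9.05 to 4.07% higher. CENPE, a kinetochore motor, had 141 and 73.6 CPM at 0 h and 195 and 229 CPM at 1.5 h (log2 fold change 0.98 ± 0.21 SE, adjusted p = 0.00725), so the 0 h values lay far apart. AURKA, a mitotic kinase, and MKI67 rose by 0.76 and 0.59, and PLK1 was not called (148 and 179 CPM at 0 h and 157 and 170 CPM at 1.5 h). Of 36 nucleolar ribosome biogenesis genes, 9 were called higher and 2 lower, with a median of 0.10, and 2 and none without that library. NCL, nucleolin, had 581 and 587 CPM at 0 h and 721 and 825 CPM at 1.5 h (log2 fold change 0.41 ± 0.11 SE, adjusted p = 0.0258), and was not called without that library. The part of GC content and fragment length in these calls was not tested gene by gene; with the GC trend of each library removed, 10 mitotic genes were called higher and the list median was 0.19.

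**Figure D3:**
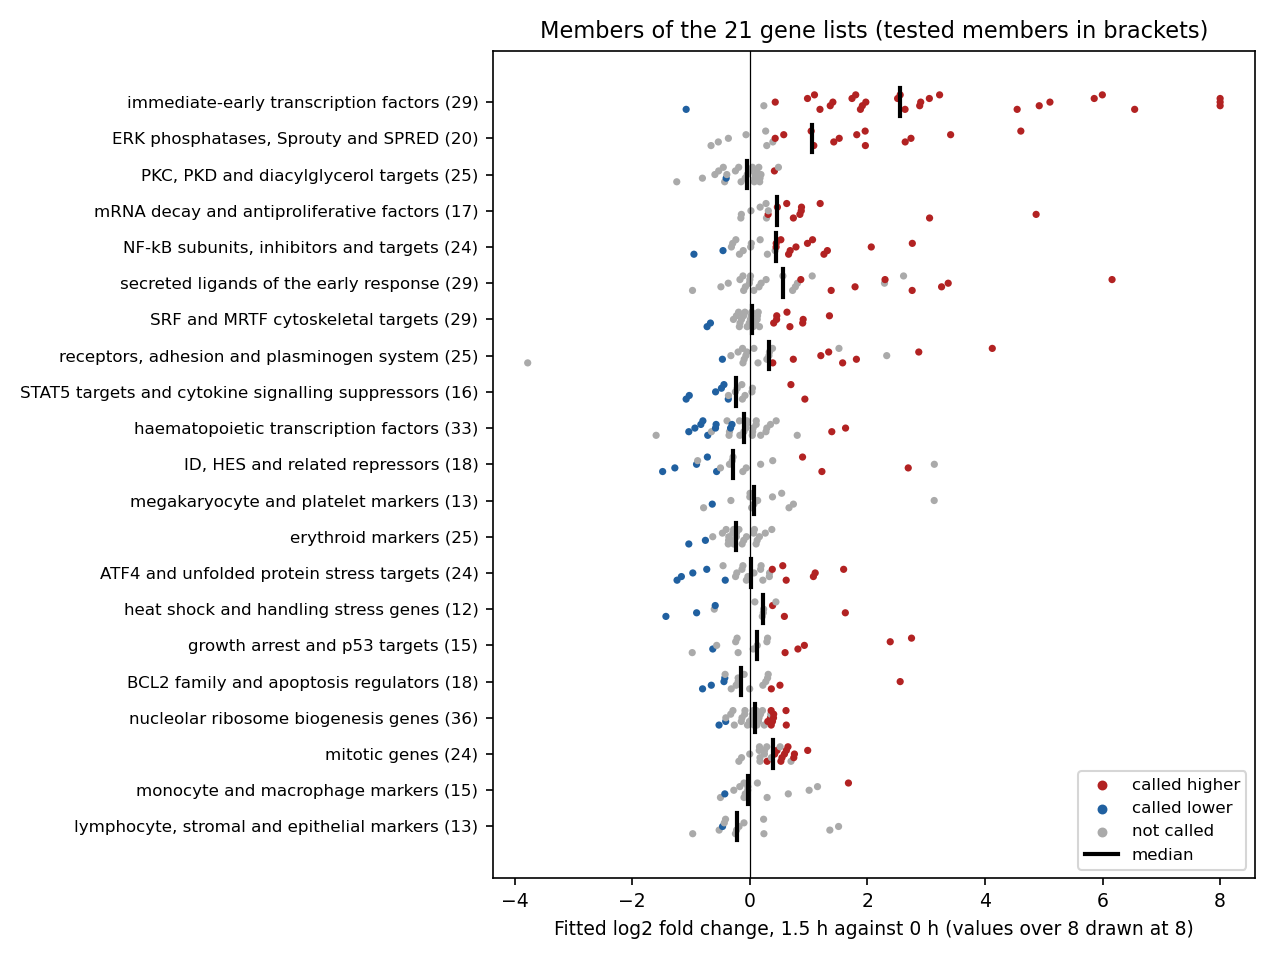
Log2 fold change from 0 h to 1.5 h of every tested member of 21 gene lists, one strip per list and one point per gene, with genes called higher and lower in colour, the list median as a bar and values over 8 drawn at 8. The immediate-early list has a median of 2.56 and the list with the ERK phosphatases one of 1.07, and the other medians lie between -0.29 and 0.56.

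Outside the lists, the rises of the highest rank included TRIB1, a pseudokinase that directs the degradation of C/EBP-alpha, with 6.05 and 6.08 CPM at 0 h and 187 and 165 CPM at 1.5 h (log2 fold change 4.86 ± 0.12 SE, adjusted p = 1.07e-11). MDGA1, a membrane-anchored adhesion protein, had 0.583 and 0.837 CPM at 0 h and 15.1 and 11.2 CPM at 1.5 h (log2 fold change 4.21 ± 0.20 SE, adjusted p = 1.11e-08). AOC3, an amine oxidase, had 0.767 and 1.13 CPM at 0 h and 13.2 and 11.5 CPM at 1.5 h, and TEX14, a gene of germ-cell bridges, 0.215 and 0.354 CPM at 0 h and 13 and 8.14 CPM at 1.5 h. These 4 were low in untreated cells, and for each both treated values lay above both untreated ones. AOC3 lies 477 bp downstream of AOC2 on the same strand, and AOC2 also rose (log2 fold change 2.06). Whether reads past the end of AOC2 contribute to AOC3 was not tested.

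The falls were smaller, and several of the largest lie on pseudogenes or on genes that overlap another. DNM1P51, a dynamin pseudogene, had 16.1 and 17.2 CPM at 0 h and 4.82 and 4.79 CPM at 1.5 h (log2 fold change -1.79 ± 0.16 SE, adjusted p = 8.57e-06). ABCB10P4 had 14.1 and 19.5 CPM at 0 h and no read in either 1.5 h library, which is at least 194-fold lower with a floor of 3 reads per library, and its sequence is shared with ABCB10 and its other copies, among them ABCB10P3 (9.39 and 19.1 CPM at 0 h and 4.4 and 4.93 CPM at 1.5 h). CSKMT had 15.7 and 86.1 CPM at 0 h and 14.3 and 12.2 CPM at 1.5 h, so its call rested on 0 h replicate 2 (log2 fold change -1.94 with it and -0.25 without it). ABCB10P3 and KRI1 also lost their calls without it (-1.01 and -1.41). Coding genes among the largest falls were OTX1, a homeobox factor, with 8.93 and 11.9 CPM at 0 h and 3.36 and 3.57 CPM at 1.5 h (log2 fold change -1.59 ± 0.18 SE, adjusted p = 5.68e-05), KRI1, a ribosome assembly factor that overlaps ATG4D on the other strand, from 35.7 and 39 CPM to 11.9 and 15 CPM, PARS2, the mitochondrial prolyl-tRNA synthetase, from 10.8 and 12.3 CPM to 4.17 and 4.31 CPM, and CTC1, a telomere-replication protein that overlaps PFAS on the other strand, from 7.3 and 9.69 CPM to 3.53 and 2.79 CPM.

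Against 0.5 h, the time point before, 1014 genes (5.77%) were called changed at 1.5 h, 721 higher (4.11%) and 293 lower (1.67%). With total-count scaling they were 605 and 439, a share of higher calls of 58.0% in place of 71.1%. Of the 29 tested genes of the immediate-early list, 24 were higher at 1.5 h than at 0.5 h and 1 was lower. EGR3 was among them, with 0.184 and 0.225 CPM at 0 h, 27 and 30 CPM at 0.5 h, 187 and 189 CPM at 1.5 h and 415 and 386 CPM at 3 h (log2 difference 2.72, adjusted p = 1.51e-08 for 1.5 h against 0.5 h). KLF10 lay at 0.5 h where it was at 0 h, with 34.6 and 34 CPM at 0 h, 38.4 and 34 CPM at 0.5 h, 327 and 316 CPM at 1.5 h and 121 and 113 CPM at 3 h (log2 difference 3.15, adjusted p = 3.44e-10). TRIB1 had 6.05 and 6.08 CPM at 0 h, 7.61 and 6.56 CPM at 0.5 h, 187 and 165 CPM at 1.5 h and 548 and 519 CPM at 3 h (log2 difference 4.63, adjusted p = 5.78e-11). FOS had 6.08 and 6.18 CPM at 0 h, 131 and 133 CPM at 0.5 h, 352 and 360 CPM at 1.5 h and 251 and 191 CPM at 3 h (log2 difference 1.43, adjusted p = 1.71e-06).

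A second contrast set 1.5 h against the mean of 0.5 h and 3 h on the log2 scale. It calls genes that peak or dip at this time point and also those that rise faster before it than after it, such as CXCL8. It called 1111 genes (6.33%), 560 higher (3.19%) and 551 lower (3.14%), and with total-count scaling 922 and 461, a share of higher calls of 66.7% in place of 50.4%. KLF10 was higher at 1.5 h (log2 difference 2.30, adjusted p = 2.23e-09). NR4A3 had 0.123 and 0.257 CPM at 0 h, 0.423 and 0.86 CPM at 0.5 h, 13.5 and 11.1 CPM at 1.5 h and 6.36 and 7.24 CPM at 3 h (log2 difference 2.56, adjusted p = 5.19e-06). ATF3 had 67.4 and 87.7 CPM at 0 h, 158 and 167 CPM at 0.5 h, 279 and 305 CPM at 1.5 h and 69.4 and 60.7 CPM at 3 h (log2 difference 1.51, adjusted p = 2.54e-06), with 3 h values near those at 0 h. CXCL8 had 6.08 and 4.73 CPM at 0 h, 13.4 and 16.3 CPM at 0.5 h, 372 and 403 CPM at 1.5 h and 1140 and 1080 CPM at 3 h (log2 difference 1.60, adjusted p = 3.04e-06). HES1, a Notch-responsive repressor, was not called against 0 h and had 11.2 and 13.8 CPM at 0 h, 13.8 and 11.5 CPM at 0.5 h, 16.2 and 16.5 CPM at 1.5 h and 2.47 and 1.89 CPM at 3 h (log2 difference 1.64, adjusted p = 1.18e-05), and its 3 h values lay below all others. YAP1 and its processed copy YAP1P1 were also named by this rule and may share reads.

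Genes that lay lower at 1.5 h than the mean of its neighbours were mostly late risers in the examples drawn, which were chosen after their values were seen. CD44, a hyaluronan receptor, had 14.3 and 15.2 CPM at 0 h, 15.3 and 15.5 CPM at 0.5 h, 19.7 and 17.5 CPM at 1.5 h and 258 and 292 CPM at 3 h (log2 difference -1.81, adjusted p = 5.10e-07). PDGFA had 6.75 and 8.34 CPM at 0 h, 6.97 and 5.93 CPM at 0.5 h, 15.1 and 12.4 CPM at 1.5 h and 323 and 269 CPM at 3 h (log2 difference -1.67, adjusted p = 3.67e-06). CSF1, the macrophage growth factor, had 9.61 and 11 CPM at 0 h, 8.71 and 8.6 CPM at 0.5 h, 10.1 and 9.1 CPM at 1.5 h and 96.1 and 75.6 CPM at 3 h (log2 difference -1.51, adjusted p = 4.58e-06), and SYNJ2, a lipid phosphatase, 70.4 and 72.5 CPM at 0 h, 73 and 71.9 CPM at 0.5 h, 73.7 and 73 CPM at 1.5 h and 466 and 451 CPM at 3 h (log2 difference -1.31, adjusted p = 4.99e-07). Both 3 h values of each of these 4 genes lay above both 1.5 h values.

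**Figure D4:**
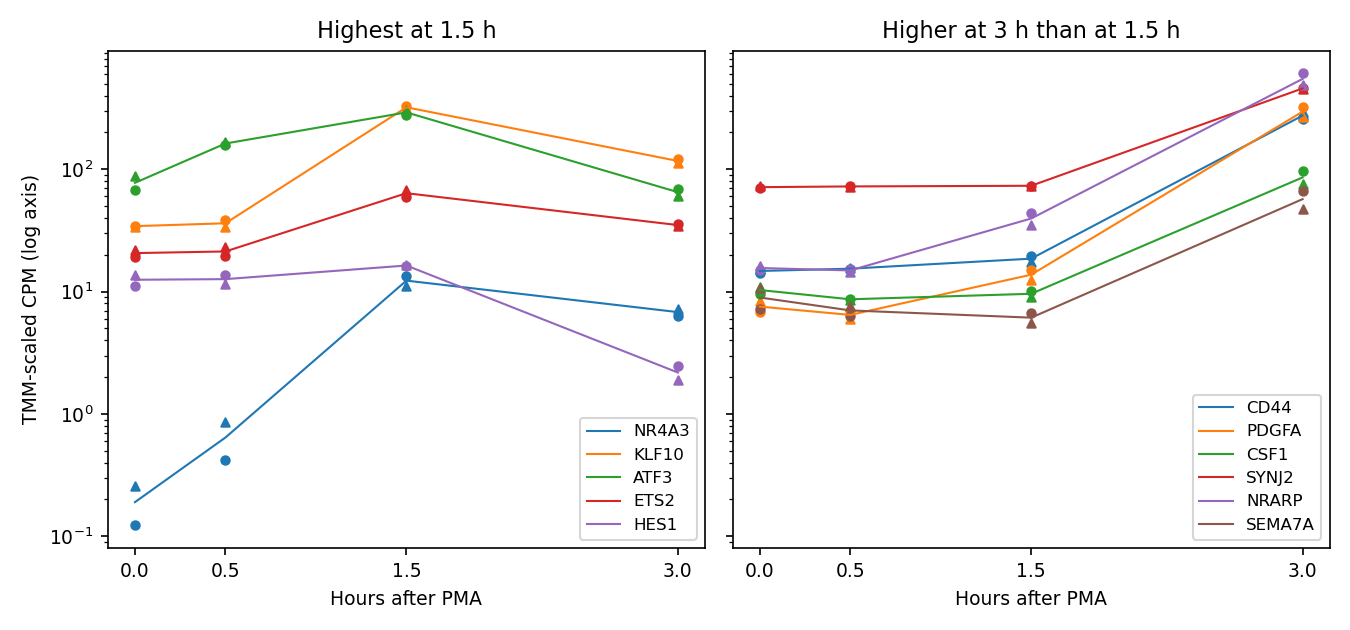
Level (CPM, log axis) of 11 genes in each library at 0, 0.5, 1.5 and 3 h of PMA, with a line through the mean of the 2 replicates. On the left are genes highest at 1.5 h, such as KLF10, and on the right genes higher at 3 h than at 1.5 h, such as CD44 with 258 and 292 CPM at 3 h.

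Some genes changed the annotated start to which their reads were assigned. The deposited estimates are per transcript, so transcripts of a gene were grouped by annotated starts no more than 500 bp apart, a measure chosen after gene-level values were seen. A group was counted as shifted where its share of the gene's reads moved by at least 25 percentage points with no overlap between the 2 pairs of libraries. Among genes with enough reads and more than 1 group, 65 of 8898 (0.731%) shifted. Of those called higher, 23 of 911 (2.52%) did, of those called lower 8 of 938 (0.853%), and of those not called 34 of 7049 (0.482%). At least 2-fold, the counts were 13 of 123 called higher (10.6%) and 1 of 29 called lower (3.45%). The 13 were NR4A1, VMP1, CREM, FOSB, IER2, IL6ST, PYGM, IQCN, VWCE, EIF2AK3, ERCC6L2, CLN8 and C5AR1. Against 0 h replicate 1 alone, 10 of these 13 shifts and 44 of the 65 still reached 25 points, and CREM, IQCN and EIF2AK3 did not (22.8, 22.4 and 15.4 points for the group that gained most). The start group that gained in IL6ST, EIF2AK3 and ERCC6L2 was estimated at 0 reads in 0 h replicate 2 and at 97, 75 and 37 reads in 0 h replicate 1. Against 0 h replicate 2 alone the counts rose to 193 genes in all and to 21 of the 123, with C5AR1 no longer among them.

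In NR4A1 the start group at chr12:52037177-52037715 (GENCODE release 29, GRCh38) held 91.2 and 91.1% of the gene's reads at 0 h and 6.48 and 6.95% at 1.5 h. Its reads rose only from 314 and 320 to 830 and 712. The group that starts at position 52051402 went from 12 and 9 reads to 7605 and 5884 reads, or from 3.38 and 2.53% to 59.4 and 57.5% of the gene. Another, at 52053418, held 29.5 and 30.5% at 1.5 h, and it is 1 retained-intron transcript with 3782.9 and 3122.4 estimated reads then. By these estimates, most of the rise of NR4A1 was assigned to transcripts with downstream annotated starts. Whether those starts were used was not tested.

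VMP1, which encodes a membrane protein of autophagy, showed a similar pattern (VMP1 and CREM were chosen after their values were seen). Its first start, at chr17 position 59707192, held 47.7 and 50.6% of the reads at 0 h and 20.6 and 23.3% at 1.5 h. The group at 59837628 near the 3′ end of the gene went from 2226 and 1518 to 11519 and 9621 reads. Most of these belonged to a retained-intron transcript at chr17:59837931-59842255, with 1518.6 and 992.6 estimated reads at 0 h and 9799.9 and 8270.6 at 1.5 h. That transcript spans the hairpin of microRNA miR-21 at chr17:59841266-59841337, and whether its reads come from the primary transcript of the microRNA was not tested. The libraries do not measure the mature form. The mature miR-21-5p at chr17:59841273-59841294 (RefSeq, GRCh38.p14, plus strand) is shown for that reason, with its seed, bases 2 to 8, in capitals.
miR-21-5p: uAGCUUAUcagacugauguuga

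CREM, a cyclic AMP responsive factor whose internal promoter yields the short repressor ICER, had a start group at chr10 position 35195127 that went from 24.7 and 18.6% to 49.2 and 45.8% of the gene's reads, or from 163 and 108 to 838 and 714 reads. In FOSB the share of the first start went from 47.4 and 39.4% to 86.3 and 85.3%. Read estimates of transcripts that share exons depend on the model that divides them, and a group of starts is not a measured start.

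**Figure D5:**
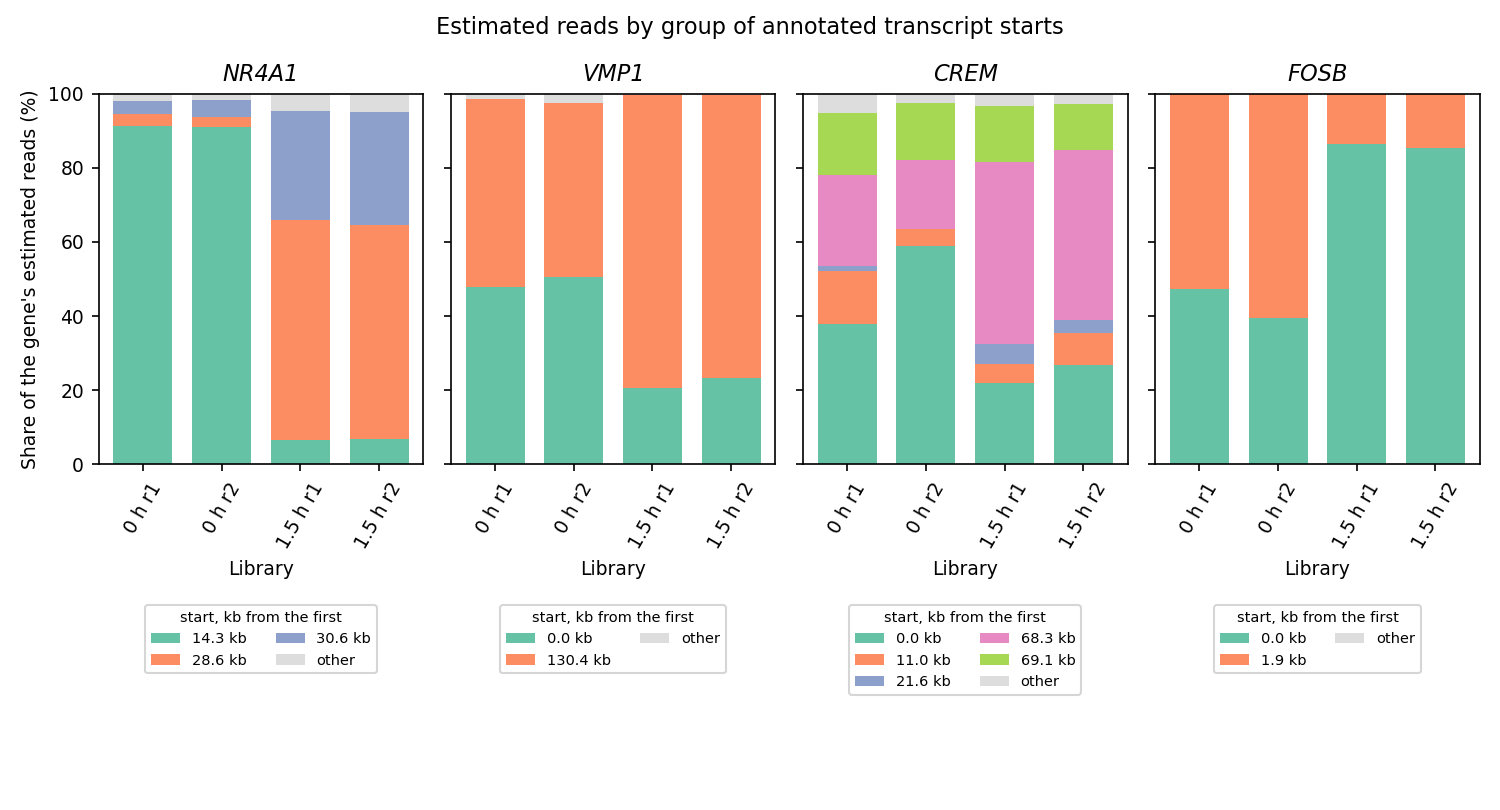
Share of a gene's reads (percent) assigned to each group of annotated transcript starts in the 2 libraries at 0 h and the 2 at 1.5 h, for NR4A1, VMP1, CREM and FOSB. In NR4A1 the upstream group falls from 91.2 and 91.1% to 6.48 and 6.95%.

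Genes called with at least 2-fold changes in either direction had a shorter median span than all genes tested. For genes called higher at any size the median span was longer with 0 h replicate 2 included. Without that library it was shorter than for all genes, 20.6 kb with 5 exons. The median genomic span was 30.7 kb with 7 exons for all genes called higher, 11.2 kb with 4 exons for those at least 2-fold higher, 4.21 kb and 2 exons for those at least 2-fold lower, and 27.4 kb and 6 exons for all genes tested. Pseudogenes made up 24.0 and 39.7% of the sets at least 2-fold higher and lower and 11.9% of all, and many of them share reads with a parent gene. Most genes of these 2 sets were at low levels. A mean of 5 CPM was reached by 177 of the 605 at least 2-fold higher and 66 of the 184 at least 2-fold lower. Median GC content was 45.3% for genes called higher, 58.0% for genes called lower and 49.1% for all. Without 0 h replicate 2 the first 2 were 50.3 and 53.6%, so the called-higher set then lay above all genes and still below the called-lower set.

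Among genes with a tested gene close upstream, those called higher had a called-higher upstream gene more often than all such genes did. Among 3306 tested genes with a tested gene within 10 kb upstream on the same strand, the upstream gene was called higher in 8.83%. For genes called higher the share was 20.4% of 367, for those at least 2-fold higher 47 of 224 (21.0%), and for those at least 4-fold higher 30 of 125 (24.0%). For genes called lower, the upstream gene was called lower in 18.6% of 365, against 10.7% of all. All these shares come from the fit that includes 0 h replicate 2. IQCN lies 5251 bp downstream of JUND, which also rose, and IQCN had a log2 fold change of 2.62. RPL7P19, a ribosomal protein pseudogene, lies 4429 bp downstream of EGR1 and rose by 2.78 (not called without 0 h replicate 2, where it had 2.56), and TMEM88 lies 269 bp downstream of KDM6B, which encodes a histone demethylase, with 2.33 and 0.81. Total RNA holds unspliced and unfinished transcripts, and whether reads past the end of the upstream gene contribute was not tested. These pairs and the count were chosen after values were seen.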

How the data were processed

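The members of the comparison and the gene lists were chosen with earlier results of these data known. The deposited tables hold, per the file headers, an estimated read count (NumReads) and a TPM value per transcript for each of 16 libraries, in the form the program Salmon writes. Per the submitters' processing notes, the tools were Trim Galore 0.4.3, Salmon, HISAT2 2.1.0, SAMtools 1.9, deepTools 3.0.1, R 3.3.1 and DESeq2, with builds hg19 and hg38. Which build and transcript set served the Salmon tables is not given in the sources used here, nor is the strand setting.

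Transcripts were assigned to genes with GENCODE release 29 (GRCh38): 167027 of 177456 (94.1%) matched, and the unmatched ones held 3.02 to 3.75% of the reads of the 4 libraries and were left out. Estimated counts were summed per gene and rounded, and the deposited TPM values were summed per gene and averaged over the 2 libraries of a time point. In edgeR 4.0.16 (limma 3.58.1, R 4.3.3), all 16 libraries were fitted by time point with TMM factors (0.854 to 1.139), the filterByExpr filter and the quasi-likelihood test. The fit had a common biological coefficient of variation of 0.123 and 8 residual degrees of freedom, and fold changes used a prior count of 0.125. A gene was called at a Benjamini-Hochberg adjusted p under 0.05. On simulated counts with 200 changed genes of 17559, 57% of 2-fold and 77% of 4-fold changes were recovered, with 8 false calls of 142. These counts were drawn without the GC difference of 0 h replicate 2, so they do not give the rate of false calls in this comparison. An exact permutation test of 2 against 2 libraries cannot go below p = 0.333, so single genes rest on the spread shared over all time points. Standard errors (SE) come from the quasi-likelihood fit and include its estimated spread between libraries. Floors (3 reads) cover counting error only.

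Named genes were the 15 largest rises and 15 largest falls among called genes whose mean reached 5 CPM and whose groups do not overlap. To these were added, from each of 21 lists (495 entries), the called members with the largest rise and fall and the one of highest mean level, together with members called against their list's median. All called members of 5 lists (immediate-early factors, ERK phosphatases, mRNA decay factors, NF-kB genes and ligands) with a mean of at least 1 CPM were included, with the 10 largest values in the contrast of 1.5 h with its neighbours. Other genes named from the lists or among genes outside them, the uncalled members given as contrast, the start groups and the neighbour count were chosen after their values were seen. Lists are described by counts and medians, with no test of the list.

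The alternatives were other size factors, DESeq2 1.42.0, total-count scaling, other low-count filters, a fit of only the time points compared, the replicate number as a block, removal of each library's GC trend, counts rebuilt from TPM, stricter thresholds and each replicate left out. Start shifts against each 0 h library alone were added after the values were seen. Promoter, protein and microRNA sequences came from RefSeq (GRCh38.p14); no protein is shown. Results of some named genes are not reported here.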

Additional observations from a re-analysis of the deposited data

How the results depend on the processing

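The number of genes called at 1.5 h against 0 h was 3003, and it moved by over 1.5 times in the following settings. It was 934 when only the libraries of the time points compared were fitted, 1160 at an adjusted p under 0.01 and 456 in a test against a 1.5-fold change. Leaving out 1 library gave 1021 to 5047 calls: the count was 5047 when 0 h replicate 1 was dropped, 1021 when 0 h replicate 2 was, and 1269 and 1071 when 1.5 h replicates 1 and 2 were. Of the calls, 990 kept their direction and call without 0 h replicate 2, and 2222 did after removal of the GC trend, where 3111 genes were called. For 1.5 h against 0.5 h, with 1014 calls, the counts were 2352 with only these time points, 1905 with the GC trend removed, 2376 with the block and the GC trend removed, 540 at 0.01, 308 against a 1.5-fold change and 434 to 617 with any 1 of the 4 libraries left out. For 1.5 h against the mean of 0.5 h and 3 h, with 1111 calls, they were 2345 with the GC trend removed, 2824 with the block and the GC trend removed, 712 with counts rebuilt from TPM, 575 at 0.01, 114 against a 1.5-fold change and 396 to 1023 with 1 library left out, where 3 h replicates 1 and 2 moved the count by less than 1.5 times and each of the others by more.

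The replicate numbers were not taken as pairs. The labels do not say that they mark a shared batch, and although same-numbered deviations correlated above 0.1 for 24 of 28 pairs of time points (range -0.296 to 0.598), the value for 0 h and 1.5 h was -0.073. With the replicate block, 3581 genes were called against 0 h, 1144 against 0.5 h and 1240 against the mean of 0.5 h and 3 h. Of 145 named genes, 92 kept their direction and their side of the threshold in every alternative, and of 2022 values, 1785 did, 230 were no longer called, 7 were newly called and none reversed. Of 294 list medians, 67 moved by more than the spread between replicates. With total-count scaling the medians of the SRF and MRTF targets and of the ATF4 targets changed sign.

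With 29241520 to 34379674 reads a library, a count of 0 allows up to 0.084 to 0.0966 CPM (3 reads). The causes of the differences between settings were not tested.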
